A study of Mus musculus with 33 samples.

Results

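The genes described here are 8 genes of survival, death and NF-kB signalling in B cells: Fas, Bcl2a1b, Nfkbie, Cflar, Cd80, Birc2, Bcl2l15 and Trp53inp1. They were chosen by name with earlier results of these data known, so counts of them set against all genes are descriptions. Each was valued as the sum of the estimated counts of all numbered genomic regions that lie wholly inside its RefSeq span and inside no other gene. All 8 had such a value among 10750 genes that did, and all 8 passed the low-count filter, as did 4510 genes in all. RNA was total RNA depleted of ribosomal RNA, from CH12, a B lymphoma line of the mouse whose cells can switch their antibody class in culture. The cells compared were of 4 lines: a clone of ZMYND8 knockout cells called KO1, a clone called KO2, the parental wild type (WT) line, and a WT clone. ZMYND8 is a nuclear protein that recognises acetylated and methylated histones. Each of these 4 lines was kept for 48 h activated or unactivated, in 3 cultures per line and state, so 24 libraries form 8 groups. The labels name neither the activating stimulus nor the edited part of Zmynd8, and each KO line is 1 clone. Another 9 samples of the series were not analysed here. A gene value covers only some bases of the gene, and whether these are exonic or intronic, and of which strand, is not known here, so it is not the level of the mature mRNA. In bulk RNA, fewer cells that transcribe a gene and less of its RNA per cell cannot be told apart.

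CD40 is a receptor of B cells whose ligand is carried by helper T cells, and its signal runs through TRAF adaptors and the kinase NIK to the NF-kB transcription factors. NF-kB switches on genes that keep the cell alive, genes that make it visible to T cells, and its own inhibitors, which close the loop. The same signal also raises the death receptor Fas, so that an activated B cell becomes both better protected and easier to remove. Fas engages caspase-8, and Cd80 is a costimulatory ligand for T cells. Cflar encodes c-FLIP, which blocks caspase-8, and Birc2 encodes cIAP1, a ubiquitin ligase that restrains both NIK and caspase-8 complexes. Bcl2a1b is 1 of the mouse copies of A1, a BCL2-type survival protein, and Bcl2l15 is a BCL2-family protein described as promoting death. Nfkbie encodes IkB-epsilon, an NF-kB inhibitor, and Trp53inp1 is a p53 target that promotes cell death and autophagy.

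Sequence before the transcript start is shown for the 4 genes with a match to TGANTCA, a loose AP-1 core that allows any middle base. It was searched since AP-1 and NF-kB factors act together in activated B cells. The match reads TGAGTCA in Nfkbie and Fas, TGAATCA in Bcl2a1b and TGATTCA in Cd80. RefSeq (GRCm38.p6) gave a promoter for 7 of the 8 genes, and its 250 bases upstream of the start were searched on both strands. Capitals mark this loose AP-1 core and, in Nfkbie, also a match to the kappaB consensus nearer to the start, which does not overlap it.
Nfkbie, chr17:45555450-45555699, plus strand: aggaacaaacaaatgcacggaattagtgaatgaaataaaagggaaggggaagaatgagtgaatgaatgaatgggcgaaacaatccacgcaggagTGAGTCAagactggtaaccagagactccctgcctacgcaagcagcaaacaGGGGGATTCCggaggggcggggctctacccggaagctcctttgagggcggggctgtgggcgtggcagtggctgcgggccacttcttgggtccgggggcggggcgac
Fas, chr19:34290409-34290658, plus strand: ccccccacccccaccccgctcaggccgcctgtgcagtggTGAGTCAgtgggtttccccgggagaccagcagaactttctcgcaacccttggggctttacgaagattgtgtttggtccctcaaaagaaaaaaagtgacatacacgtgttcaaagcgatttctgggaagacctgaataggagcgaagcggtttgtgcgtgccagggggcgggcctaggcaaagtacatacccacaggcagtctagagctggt
Bcl2a1b, chr9:89199023-89199272, plus strand: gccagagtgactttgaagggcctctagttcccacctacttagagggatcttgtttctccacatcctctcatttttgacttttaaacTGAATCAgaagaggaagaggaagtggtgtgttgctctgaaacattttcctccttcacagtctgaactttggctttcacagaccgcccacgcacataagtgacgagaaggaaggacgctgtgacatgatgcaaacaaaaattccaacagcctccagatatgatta
Cd80, chr16:38458683-38458932, plus strand: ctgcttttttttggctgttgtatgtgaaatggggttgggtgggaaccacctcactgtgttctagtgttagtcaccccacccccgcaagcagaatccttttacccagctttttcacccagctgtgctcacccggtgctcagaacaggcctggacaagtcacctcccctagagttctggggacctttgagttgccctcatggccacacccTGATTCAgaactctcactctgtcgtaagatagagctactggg

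The loose AP-1 core was found in 6.75% of all 32851 RefSeq windows of this length and the kappaB consensus, here only in Nfkbie, in 7.25%. A narrower kappaB form, found in 1.41% of all windows, and the p53 half-site, found in 7.13%, matched in none of the 7 genes, Nfkbie included. Cflar held the TATA box TATAAA, found in 12.4% of all windows, and Birc2 held the cAMP response element TGACGTCA, found in 1.55%. These are matches of letters only. None of the measured regions lies over any of these windows, so the RNA data do not bear on them.

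The estimated counts of a library summed to 28.99 to 34.07 M, with a median of 32.1 M, and gene values took 0.778% to 1.204% of it. That share was higher in activated cells, with medians of 1.16% in activated KO and 0.940% in unactivated KO lines, and of 1.01% in activated WT and 0.849% in unactivated WT lines. Levels are counts relative to library size (CPM) after scaling by trimmed mean of M values (TMM) factors over all targets, and log2 changes carry their standard error (SE). A change is called where the Benjamini-Hochberg adjusted p of edgeR's quasi-likelihood test, over all 4510 gene values, is under 0.05. Unactivated WT replicate 3 and unactivated WT clone replicate 2 stood apart from their group by a gene value share of 1.204% and 1.142%. B cell markers were present, since 7 of 11 listed had a value and these summed to 22.9 to 76.5 CPM. T cell markers summed to 0.665 to 1.77 CPM over 4 of 9 genes, with Bcl11b at 0, myeloid markers to 0.320 to 1.23 CPM over 3 of 8, and stromal markers to 0.0368 to 1.66 CPM over 2 of 4, with Col1a1 at 0. The value of Zmynd8 was not lower in the KO lines, at 3.47 ± 0.67 CPM in activated KO and 2.43 ± 0.44 CPM in activated WT lines (SD, n = 6 each), a log2 change of 0.52 (edgeR adjusted p = 0.0418). Where Zmynd8 was edited is not given, so this value checks no label.

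Activation raised nearly all of these genes in both genotypes. In the KO lines all 8 were called higher, and in the WT lines 7 were, the exception being Trp53inp1. Over all gene values 24.1% were called higher in the KO lines and 16.4% in the WT lines. The median log2 change of the 8 was 1.70 in KO and 1.60 in WT lines, against 0.28 and 0.19 over all gene values in the same comparisons. With TMM factors from the gene values alone both medians over all gene values became -0.02, and the numbers called became, higher first, 584 and 481 in KO lines (1086 and 191 before) and 510 and 497 in WT lines (740 and 244 before). Relative to the median of all gene values, the 7 genes other than Trp53inp1 rose by log2 1.04 to 2.48 in KO lines and by 0.98 to 2.10 in WT lines, and all 14 of these calls were kept under that scaling. Markers of other cell types also moved with state. The stromal sum, which is Pdgfrb alone since Col1a1 was at 0 and the other 2 listed genes had no value, was 0.528 to 0.986 CPM in activated and 0.102 to 0.219 CPM in unactivated KO lines. In WT lines it was 0.742 to 1.66 CPM activated and 0.0368 to 0.4302 CPM unactivated, so the states did not overlap in either genotype. The myeloid sum over 3 genes had medians of 1.10 CPM in activated and 0.548 CPM in unactivated KO lines, and 0.909 CPM in activated and 0.495 CPM in unactivated WT lines, with overlap. Their part in the changes with activation was not tested.

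**Figure D1:**
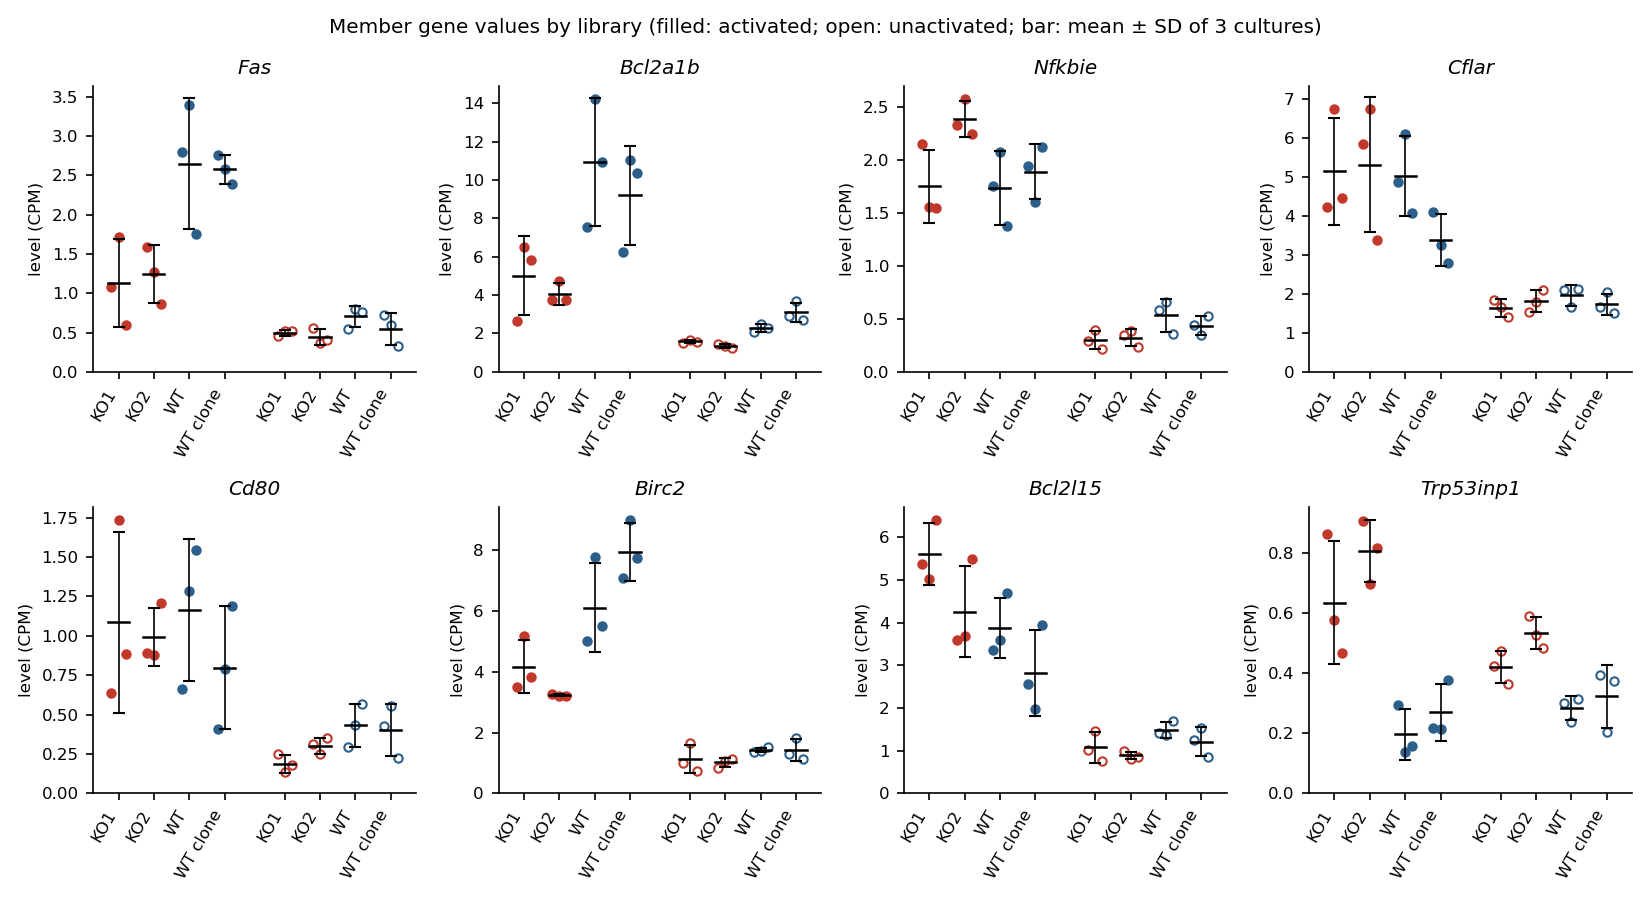
Level (CPM, linear axis from 0) of each of the 8 genes in each of 24 libraries, with the mean and SD of 3 cultures per group, KO lines in red and WT lines in blue. Activated groups (filled) stand above unactivated groups (open) of the same line for 7 genes, and activated KO lines stand below activated WT lines for Fas and above them for Trp53inp1.

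Fas, the death receptor (chr19:34290647-34327775 on GRCm38), had 1.08, 1.71 and 0.598 CPM in activated KO1, and 1.59, 1.27 and 0.867 CPM in activated KO2 cultures. Activated WT cultures had 2.79, 3.40 and 1.76 CPM and activated WT clone cultures 2.76, 2.58 and 2.39 CPM. Every activated KO culture was thus below every activated WT culture. Unactivated libraries had 0.369 to 0.559 CPM in KO lines, with a median of 0.485, and 0.326 to 0.801 CPM in WT lines, with a median of 0.661, and these overlapped. Fas rose with activation by log2 1.32 ± 0.25 in KO lines and 2.07 ± 0.23 in WT lines (edgeR adjusted p = 0.000169 and 1.19e-07). In activated cells it was lower in KO than in WT lines by a log2 change of -1.14 ± 0.21, a 2.20-fold lower level (edgeR adjusted p = 0.000583). In unactivated cells the change was -0.38 ± 0.27 and not called (edgeR adjusted p = 0.491).

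Cd80, the costimulatory ligand (chr16:38457430-38495958), rests on 1 region of 1138 bases with 4 to 56 counts per library. Its level was 0.636 to 1.73 CPM in activated KO lines (median 0.888) and 0.137 to 0.349 CPM in unactivated KO lines (median 0.249). It was 0.409 to 1.54 CPM in activated WT lines (median 0.991) and 0.223 to 0.567 CPM in unactivated WT lines (median 0.4305), where the states overlap. The rise was log2 2.09 ± 0.32 in KO lines and 1.21 ± 0.29 in WT lines (edgeR adjusted p = 1.21e-05 and 0.00308), and with the WT clone alone it was 1.01 and not called. Between KO and WT lines no change was called: the log2 change was 0.10 in activated cells (95% interval -0.41 to 0.61, from the SE) and -0.78 in unactivated cells (-1.48 to -0.08, edgeR adjusted p = 0.233), with KO below WT in all 4 pairings of unactivated lines.

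Of the genes that restrain death receptors, Cflar (chr1:58711311-58758884) did not separate the genotypes and Birc2 did. Cflar had 3.38 to 6.73 CPM in activated KO lines (median 5.15) and 2.80 to 6.11 CPM in activated WT lines (median 4.09), with 1.40 to 2.10 CPM in unactivated KO and 1.51 to 2.12 CPM in unactivated WT lines. It rose with activation by log2 1.60 ± 0.18 in KO and 1.16 ± 0.18 in WT lines (edgeR adjusted p = 1.21e-07 and 1.82e-05). Its change between KO and WT lines was 0.34 in activated cells (95% interval 0.01 to 0.68, edgeR adjusted p = 0.277), which was not called.

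Birc2, encoding cIAP1 (chr9:7818226-7837131, minus strand), had 3.51, 5.17 and 3.85 CPM in activated KO1 and 3.28, 3.20 and 3.22 CPM in activated KO2 cultures. Activated WT cultures had 5.03, 7.78 and 5.51 CPM and activated WT clone cultures 7.10, 8.998 and 7.76 CPM. The groups met only where the highest KO1 culture, at 5.17 CPM, passed the lowest WT culture, at 5.03 CPM. Unactivated levels were 0.748 to 1.66 CPM in KO lines (median 1.04) and 1.14 to 1.83 CPM in WT lines (median 1.39). Activation raised Birc2 by log2 1.76 ± 0.18 in KO lines and 2.28 ± 0.18 in WT lines (edgeR adjusted p = 3.19e-08 and 2.98e-10). It was lower in activated KO than in activated WT lines, by -0.92 ± 0.16 or 1.90-fold (edgeR adjusted p = 0.000397). Its neighbour and relative Birc3, encoding cIAP2, did not move with it. Birc3 had 4.16 to 5.45 CPM in activated KO and 1.86 to 3.28 CPM in activated WT lines, which did not overlap, and was higher in KO by 0.79 ± 0.15 (edgeR adjusted p = 0.00057). It fell with activation in WT lines, by -0.57 ± 0.15 (edgeR adjusted p = 0.00491), and its change in KO lines, 0.26 ± 0.14, was not called (edgeR adjusted p = 0.194).

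Bcl2a1b, the A1 survival gene (chr9:89199273-89207838), was lower in KO lines in both states. Activated KO1 cultures had 2.66, 6.52 and 5.83 CPM and activated KO2 cultures 3.73, 4.73 and 3.73 CPM. Activated WT cultures had 7.58, 14.2 and 10.9 CPM and activated WT clone cultures 6.26, 11.02 and 10.4 CPM, so only the highest KO1 culture reached into the WT range. The activated change was -1.15 ± 0.19, a 2.23-fold lower level in KO lines (edgeR adjusted p = 0.000157). Unactivated libraries had 1.24 to 1.66 CPM in KO lines (median 1.48) and 2.05 to 3.67 CPM in WT lines (median 2.61), without overlap. There the change was -0.87 ± 0.21 (edgeR adjusted p = 0.00856) and -0.80 (edgeR adjusted p = 0.0318) without the pair of unactivated WT libraries that stood apart. It was not called with KO1 alone (-0.74) or with parental WT alone (-0.64). Activation raised Bcl2a1b by log2 1.63 ± 0.20 in KO and 1.92 ± 0.20 in WT lines (edgeR adjusted p = 7.29e-07 and 3.52e-08). The mouse A1 genes are near-identical copies, so reads can be divided among them, and the value of Bcl2a1b alone is uncertain. A region over Bcl2a1d, which also overlaps the gene Gm10634, moved the same way, at 8.81 CPM in activated KO against 19.1 CPM in activated WT lines on average, a log2 change of -1.12 ± 0.18 (edgeR adjusted p over all 61074 targets = 0.000451).

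Bcl2l15 (chr3:103831036-103854618), the other BCL2-family gene, had 5.37, 5.03 and 6.41 CPM in activated KO1 and 3.60, 3.68 and 5.48 CPM in activated KO2 cultures. It had 3.36, 3.59 and 4.69 CPM in activated WT and 2.55, 1.97 and 3.94 CPM in activated WT clone cultures. KO1 lay above all of these and KO2 overlapped with them. Unactivated levels were 0.753 to 1.47 CPM in KO lines (median 0.922) and 0.842 to 1.70 CPM in WT lines (median 1.38). Its rise with activation was log2 2.32 ± 0.20 in KO and 1.31 ± 0.19 in WT lines (edgeR adjusted p = 9.56e-10 and 9.11e-06). The activated KO value was higher by 0.56 ± 0.18 (edgeR adjusted p = 0.0465). Among the 12 activated libraries, 9 ended that call when left out singly, all except WT replicate 3, WT clone replicate 3 and KO2 replicate 2, with adjusted p of 0.0515 to 0.180. So did 7 of the 12 unactivated libraries, which enter the comparison only through the shared estimate of spread, at 0.0528 to 0.0600.

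Nfkbie, encoding the inhibitor IkB-epsilon (chr17:45555700-45563169), rests on 1 region of 804 bases and was the member that rose most in the KO lines. It had 1.55 to 2.58 CPM in activated KO (median 2.20) and 0.218 to 0.391 CPM in unactivated KO lines (median 0.322), a log2 change of 2.76 ± 0.20 (edgeR adjusted p = 7.31e-11). In WT lines it had 1.38 to 2.12 CPM activated (median 1.85) and 0.344 to 0.656 CPM unactivated (median 0.485), a log2 change of 1.88 ± 0.19 (edgeR adjusted p = 2.75e-08). States did not overlap in either genotype. KO and WT lines overlapped in both states, with a change of 0.18 in activated cells (95% interval -0.14 to 0.50) and of -0.70 in unactivated cells (-1.16 to -0.24, edgeR adjusted p = 0.0750). The unactivated change became -0.82 without unactivated WT replicate 3 (edgeR adjusted p = 0.0302) and -0.90 without both libraries that stood apart (edgeR adjusted p = 0.0211), and was then called.

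Trp53inp1, the p53 target (chr4:11156441-11174379), was the gene that did not follow the others. Activated KO1 cultures had 0.863, 0.576 and 0.468 CPM and activated KO2 cultures 0.907, 0.698 and 0.819 CPM. Activated WT cultures had 0.294, 0.139 and 0.157 CPM and activated WT clone cultures 0.218, 0.213 and 0.378 CPM. Every activated KO culture lay above every activated WT culture, on counts of 15.3 to 29.8 per KO library and 4.42 to 13.0 per WT library. The change was 1.65 ± 0.24, a 3.14-fold higher level in KO lines (edgeR adjusted p = 2.45e-05). Unactivated libraries had 0.365 to 0.592 CPM in KO lines (median 0.479) and 0.204 to 0.394 CPM in WT lines (median 0.308), a change of 0.62 ± 0.24 that was not called (edgeR adjusted p = 0.136). With activation the value changed by 0.60 ± 0.21 in KO lines (edgeR adjusted p = 0.0369) and by -0.43 ± 0.27 in WT lines (edgeR adjusted p = 0.288). The call in KO lines was lost with TMM factors from the gene values alone (0.30, edgeR adjusted p = 0.352), under DESeq2 (0.60, adjusted p = 0.106), and when any of 7 KO libraries was left out singly (0.45 to 0.61, edgeR adjusted p = 0.0594 to 0.149). Those libraries are unactivated KO1 replicates 1 and 3 and KO2 replicates 2 and 3, and activated KO1 replicate 1 and KO2 replicates 1 and 3.

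Set together, the genotypes differed in 5 of the 8 genes in activated cells, with Trp53inp1 and Bcl2l15 higher and Bcl2a1b, Fas and Birc2 lower in KO lines. The shares of all gene values called there were 6.34% higher and 2.33% lower. In unactivated cells 1 of the 8, Bcl2a1b, was called, as lower, against 3.1% lower and 3.46% higher among all gene values. An unadjusted edgeR p under 0.05 was found there for 6 of the 8. The share of all gene values with such a p was not computed, so nothing is read from that count. When the counts of a line and state were summed, so that 2 KO lines stood against 2 WT lines, the activated calls of Fas, Bcl2a1b, Birc2 and Trp53inp1 were kept (edgeR adjusted p = 0.00151, 0.00306, 0.0104 and 0.00338) and that of Bcl2l15 was lost (0.154). With TMM factors from the gene values alone the 5 calls were kept, and the gene values called higher and lower were 253 and 155, not 286 and 105. The p-values measure the spread between cultures, and cultures of a line share its history. The summed B cell markers had higher medians in KO lines, with overlap in both states. Activated, they were 56.0 to 76.5 CPM in KO lines (median 63.2) and 36.5 to 58.9 CPM in WT lines (median 45.6). Unactivated, they were 39.0 to 56.5 CPM in KO lines (median 43.3) and 22.9 to 50.5 CPM in WT lines (median 35.7). The part of these markers in the results was not tested.

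**Figure D2:**
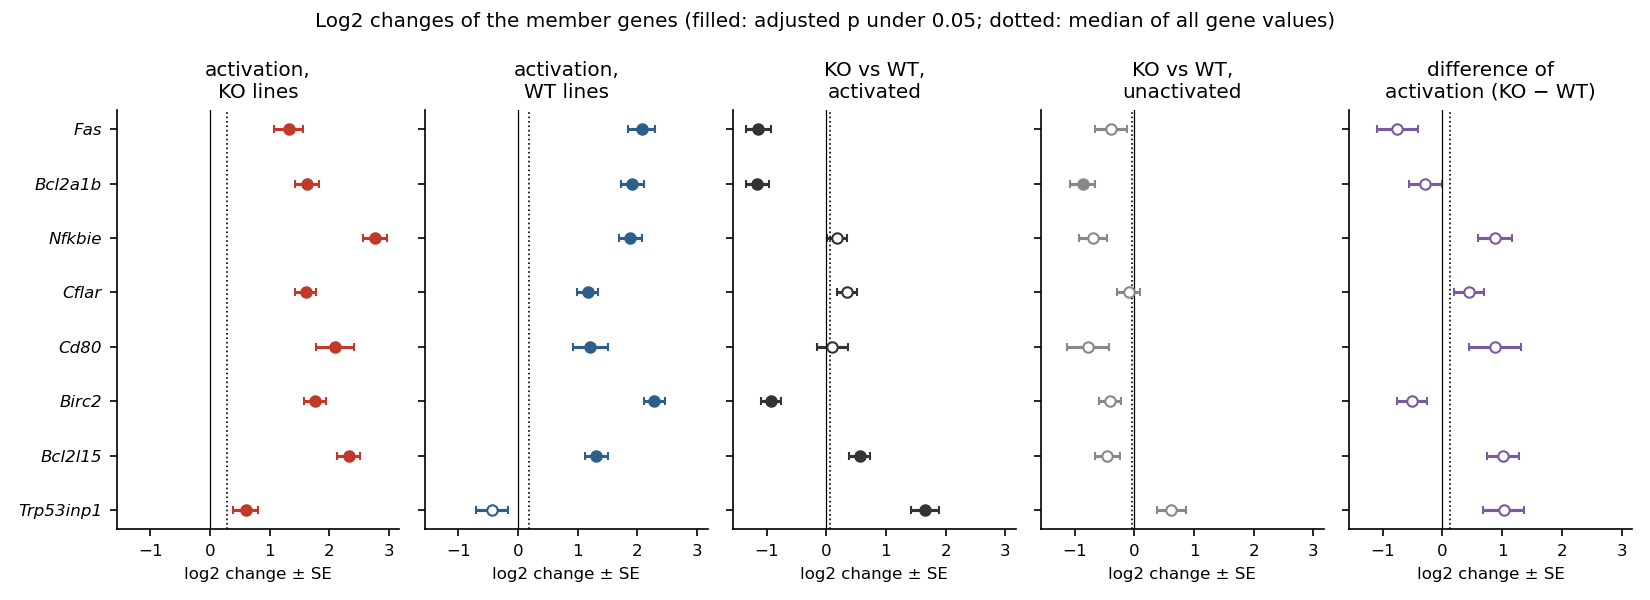
Log2 change with its SE for each of the 8 genes in 5 comparisons, filled where the edgeR adjusted p is under 0.05, with the median of all gene values dotted. Activation moved 7 genes up in both genotypes, while in activated cells Fas, Bcl2a1b and Birc2 lie to the left of 0 and Trp53inp1 at 1.65.

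The change with activation itself was not shown to differ between the genotypes for any of the 8 genes. The difference, KO lines minus WT lines, was called for 0 of 8 with edgeR and for 0.554% of all gene values. An unadjusted edgeR p under 0.05 was reached by 5 of the 8, a count for which the share of all gene values was likewise not computed. DESeq2 called 1, Bcl2l15 (1.02, adjusted p = 0.0196). By edgeR Bcl2l15 had a difference of 1.02 ± 0.27 (adjusted p = 0.0817), called on leaving out WT clone replicate 3 of either state (1.12 unactivated and 1.18 activated). Trp53inp1 had 1.03 ± 0.34 (edgeR adjusted p = 0.240), Nfkbie 0.88 ± 0.28 (0.214) and Cd80 0.88 ± 0.44 (0.470). Fas had -0.75 ± 0.34 (edgeR adjusted p = 0.434) and Birc2 -0.52 ± 0.25 (0.461). Cflar, at 0.44 ± 0.25, and Bcl2a1b, at -0.29 ± 0.28, had intervals that include 0 (-0.05 to 0.93 and -0.84 to 0.26).

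Lines of the same genotype gave no calls among these genes. None of the 8 was called between KO2 and KO1 with edgeR, activated (0.155% of all gene values called) or unactivated (0%), nor between the WT clone and parental WT, activated (0.0887%) or unactivated (0.133%), and 1 of these 32 comparisons had an unadjusted p under 0.05. Between genotypes, each KO line was set against each WT line, and Fas was called lower and Trp53inp1 higher in all 4 pairings of activated lines. The changes ran from -1.23 to -1.05 for Fas and from 1.22 to 2.08 for Trp53inp1. Bcl2a1b was called lower in 3 pairings (all 4 from -1.42 to -0.88) and Birc2 in 3 (-1.30 to -0.55), while Bcl2l15 was called higher in 1, KO1 against the WT clone (0.14 to 0.99). Over all gene values these pairings called 2.2% for KO1 against parental WT, 2.93% for KO1 against the WT clone, 3.57% for KO2 against parental WT and 6.23% for KO2 against the WT clone. Taken line by line, activation was called higher for 7 of the 8 genes in KO1 (13.5% of all gene values), 7 in KO2 (13%), 7 in parental WT (8.91%) and 6 in the WT clone (9.58%), where Cd80 missed the threshold as well as Trp53inp1.

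Levels per kilobase of measured region describe those regions, which cover from 2.95% (Cd80) to 39.5% (Bcl2a1b) of a gene's span. They do not rank the RNA of the genes. Nfkbie led in activated KO lines with 2.58 ± 0.53 CPM per kb, followed by Bcl2a1b with 1.34 ± 0.43 and Bcl2l15 with 1.21 ± 0.27 (SD, n = 6). Cd80 at 0.913 ± 0.34, Birc2 at 0.761 ± 0.16, Cflar at 0.543 ± 0.15, Trp53inp1 at 0.527 ± 0.13 and Fas at 0.151 ± 0.054 CPM per kb followed. Only Nfkbie at the top and Fas at the bottom were separated from their neighbour by more than the sum of both SDs. In activated WT lines the order was Bcl2a1b (2.97 ± 0.84 CPM per kb), Nfkbie (2.26 ± 0.36), Birc2 (1.44 ± 0.31), Cd80 (0.862 ± 0.38), Bcl2l15 (0.822 ± 0.24), Cflar (0.437 ± 0.12), Fas (0.333 ± 0.069) and Trp53inp1 (0.170 ± 0.065). There Nfkbie and Birc2, Bcl2l15 and Cflar, and Fas and Trp53inp1 were the neighbours more than the sum of their SDs apart. Birc2 stood above Cd80 and Bcl2l15 in WT and below them in KO lines, and Trp53inp1 and Fas changed places at the bottom.

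Of 16 regions in the 8 genes 12 passed the filter. With activation 9 were called higher in KO lines and 9 in WT lines, with none lower. Among all regions 19.6% and 14.3% were called higher in these comparisons. The smaller tested regions of Fas, Birc2 and Cflar passed the filter only through activated libraries, so their changes with activation are not independent of it. In activated cells 1 region was called higher in KO lines, in Trp53inp1, and 3 lower, the main regions of Fas, Bcl2a1b and Birc2. Of all regions 5.67% were called higher, which 1 of 12 is near, and 1.35% lower. That Trp53inp1 region, of 687 bases, reached at most 0.261 CPM in WT lines and 0.653 CPM in KO lines. It passed the filter through KO libraries, where it is high, so its call is not independent of the filter. In unactivated cells 2 were called lower, that of Bcl2a1b and the smaller tested region of Fas, against 2.64% of all regions. For the difference of activation 0 of 12 were called by edgeR against 0.746%. The smaller Fas region, of 614 bases at chr19:34306746-34307359, had 0 counts in all 6 unactivated KO libraries, which allows up to 0.0906 to 0.103 CPM per library. Unactivated WT libraries had 0 to 0.1204 CPM there, with 1 at 0, and summed to 11.3 counts. Their mean of 0.0640 CPM is below the KO limit, so the unactivated call rests on very few counts. The larger Fas region averaged 0.472 CPM in unactivated KO and 0.563 CPM in unactivated WT lines. Activated, the smaller Fas region summed to 42.9 counts over 6 KO libraries and 134 counts over 6 WT libraries. The larger Fas region, of 6928 bases, averaged 0.959 CPM in activated KO and 1.91 CPM in activated WT lines, a log2 change of -1.001 ± 0.23 (edgeR adjusted p over all targets = 0.00887). Both Birc2 regions lay lower in activated KO lines, the larger by -0.94 ± 0.19 (adjusted p = 0.00301) and the smaller, of 427 bases, by -0.72 ± 0.30, not called (adjusted p = 0.199).

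Bcl2l15 was not uniform. Its region of 2568 bases at chr3:103850558-103853125, with 90.1% of the gene's counts, had log2 changes with activation of 2.71 ± 0.25 in KO and 1.44 ± 0.24 in WT lines (edgeR, both called). Its region of 1130 bases at chr3:103835257-103836386 averaged 0.249 CPM in activated and 0.245 CPM in unactivated KO lines, and 0.239 CPM in activated and 0.205 CPM in unactivated WT lines, with changes of -0.11 ± 0.39 and 0.27 ± 0.40 that were not called. Cflar took 93.7% of its counts from 1 region of 8260 bases, which averaged 4.97 CPM in activated KO and 3.90 CPM in activated WT lines. Its region of 530 bases lay the other way, at 0.156 CPM in activated KO and 0.275 CPM in activated WT lines, and neither change was called. This region passed the filter through activated parental WT libraries, at 0.324 to 0.363 CPM, so its direction is not independent of the filter. Activated WT clone libraries had 0.163 to 0.265 CPM there, which overlaps with 0.0766 to 0.261 CPM in activated KO lines.

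**Figure D3:**
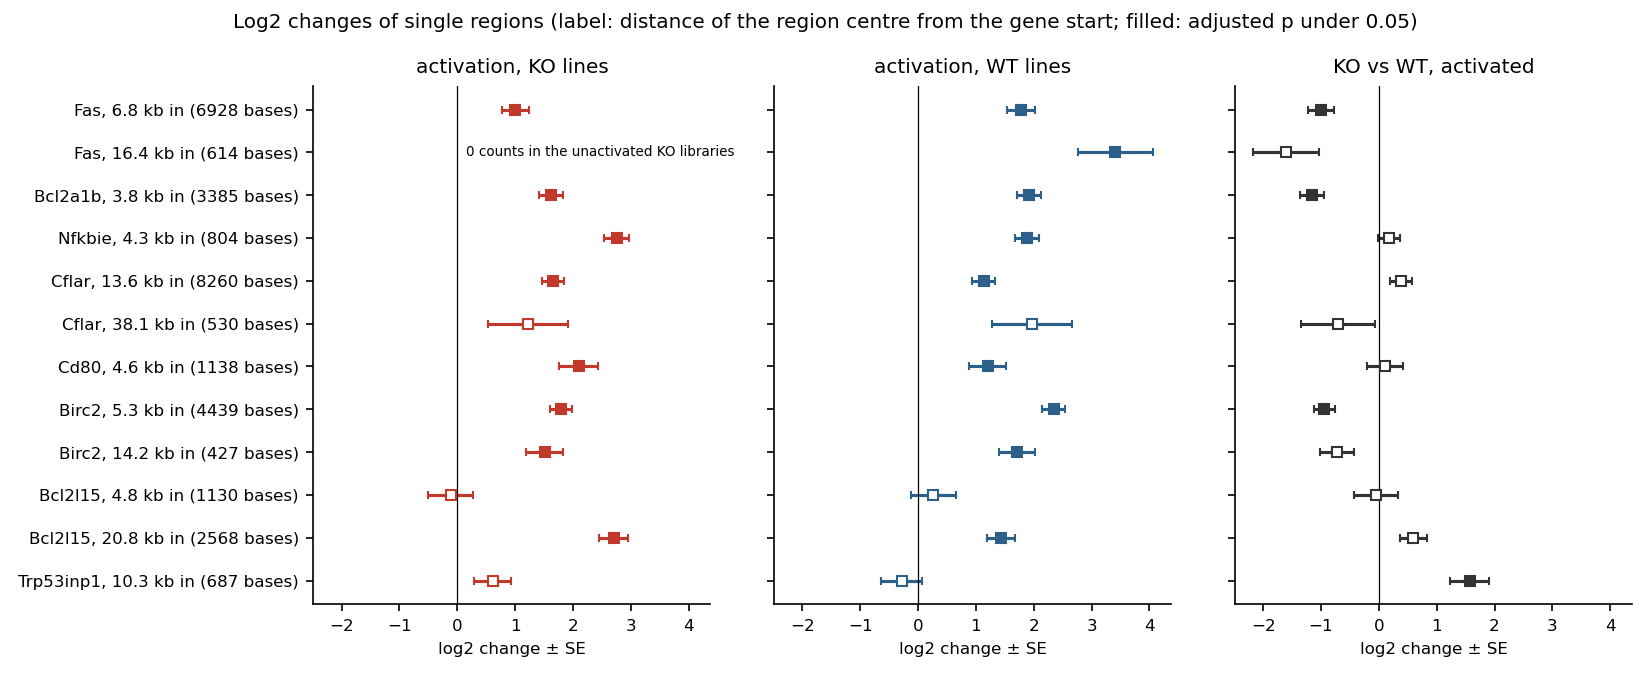
Log2 change with SE of the 12 tested regions, by gene and by distance of the region's centre from the gene start in kilobases (for Trp53inp1, whose strand is not in the tables used, from its lower coordinate), filled where called. The Fas region with 0 counts in unactivated KO libraries has text in place of a point for activation in KO lines, the 2 Birc2 regions lie on the same side of 0 in each comparison, and the nearer Bcl2l15 region lies near 0 in all 3.

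Other genes of the pathway were read from lists, in which the 8 genes are counted too where they are listed. Over all gene values activation raised 24.1% in KO and 16.4% in WT lines, and 6.34% were higher and 2.33% lower in activated KO than in activated WT lines. Of the NF-kB core (receptors, adaptors, kinases, subunits and inhibitors), 15 of 27 listed genes were tested, and activation raised 11 in KO and 10 in WT lines and lowered none, with medians of 0.87 and 0.90. Without Nfkbie these were 10 and 9 of 14. Cd40 itself, the receptor, rose by log2 1.60 in KO and 1.44 in WT lines, Nfkb1, a subunit, by 1.26 and 0.98, and Traf1, an adaptor, by 1.30 and 1.03 (all called by edgeR). In activated cells 2 of the 15 were higher in KO lines, Traf1 by 0.85 ± 0.18 (edgeR adjusted p = 0.00202) and Traf2 by 1.15 ± 0.24 (0.00205), neither overlapping with WT, and none was lower. These 2 of 15 stand beside 6.34% of all gene values, which is too few genes to read a difference from. Of NF-kB and CD40 targets 21 of 39 were tested. With activation 15 rose and 1 fell in KO lines, and 13 rose and 2 fell in WT lines, where 4.24% and 5.41% of all gene values were called lower. Without the 6 of the 8 genes on this list, 9 of 15 rose in KO and 7 of 15 in WT lines. The tetraspanin Cd82 rose by log2 2.52 in KO and 2.36 in WT lines, and Myc, the growth regulator, fell by 1.23 and 1.36. Between genotypes in activated cells 3 of the 21 were higher in KO (Birc3, Traf1 and the transcription factor Irf4, the last by 0.89 ± 0.19). Another 3 were lower (Fas, Bcl2a1b and Birc2), all among the 8 genes. The list median was -0.10 against 0.07 over all gene values. Without the 8 genes 3 of 15 were higher and 0 lower. In unactivated cells 2 were lower, Bcl2a1b and Cd82 (-0.60 ± 0.17), or 1 of 15 without the 8 genes, against 3.1% of all gene values.

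Among apoptosis receptors and caspases 10 of 24 were tested, of which activation raised 5 in KO lines and lowered none, and raised 3 in WT lines and lowered 1, Birc3. All 3 raised in WT lines were Fas, Cflar and Birc2. Without these, 2 of 7 rose in KO lines, near the 24.1% of all gene values, and 0 of 7 in WT lines. In activated KO lines 1 was higher than in WT, Birc3, and 2 lower, Fas and Birc2. Besides the 8 genes 1 of 7 was thus higher and 0 lower. In the BCL2 family 7 of 24 were tested, and activation raised 5 in KO and 6 in WT lines, or 3 and 4 of the 5 genes besides Bcl2a1b and Bcl2l15. Bcl2, the founding survival gene, was higher in KO lines in both states, by 0.68 ± 0.18 in activated cells (9.23 and 5.78 CPM on average, overlapping) and by 0.65 ± 0.18 in unactivated cells (5.61 and 3.55 CPM, not overlapping), the opposite direction to Bcl2a1b (edgeR adjusted p = 0.0122 and 0.0240). Bcl2l1, encoding BCL-XL, rose with activation by 1.54 in KO and 1.16 in WT lines. Bcl2l11, encoding the death promoter BIM, rose by 1.32 in KO and 0.74 in WT lines. Of p53 targets 3 of 26 were tested, too few for a statement beyond Fas and Trp53inp1, which moved in opposite directions between the genotypes. Of costimulatory and adhesion ligands 8 of 14 were tested, with 4 higher and 1 lower on activation in KO lines and 2 higher and 1 lower in WT lines, or 3 and 1 higher of the 7 besides Cd80, which in WT lines is near the share over all gene values. Cd274, encoding PD-L1, fell by 0.79 in KO and 1.15 in WT lines. None of these 8 ligands was called between genotypes in activated cells. In unactivated cells Pdcd1lg2, encoding PD-L2, was higher in KO by 0.81 ± 0.19 and Cd274 was lower (-0.55 ± 0.15). By edgeR over gene values the difference of activation was called for no gene of any list, while DESeq2 called Bcl2l15 and the fit over all targets called the region of Birc3 (0.83, edgeR adjusted p = 0.0482).

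**Figure D4:**
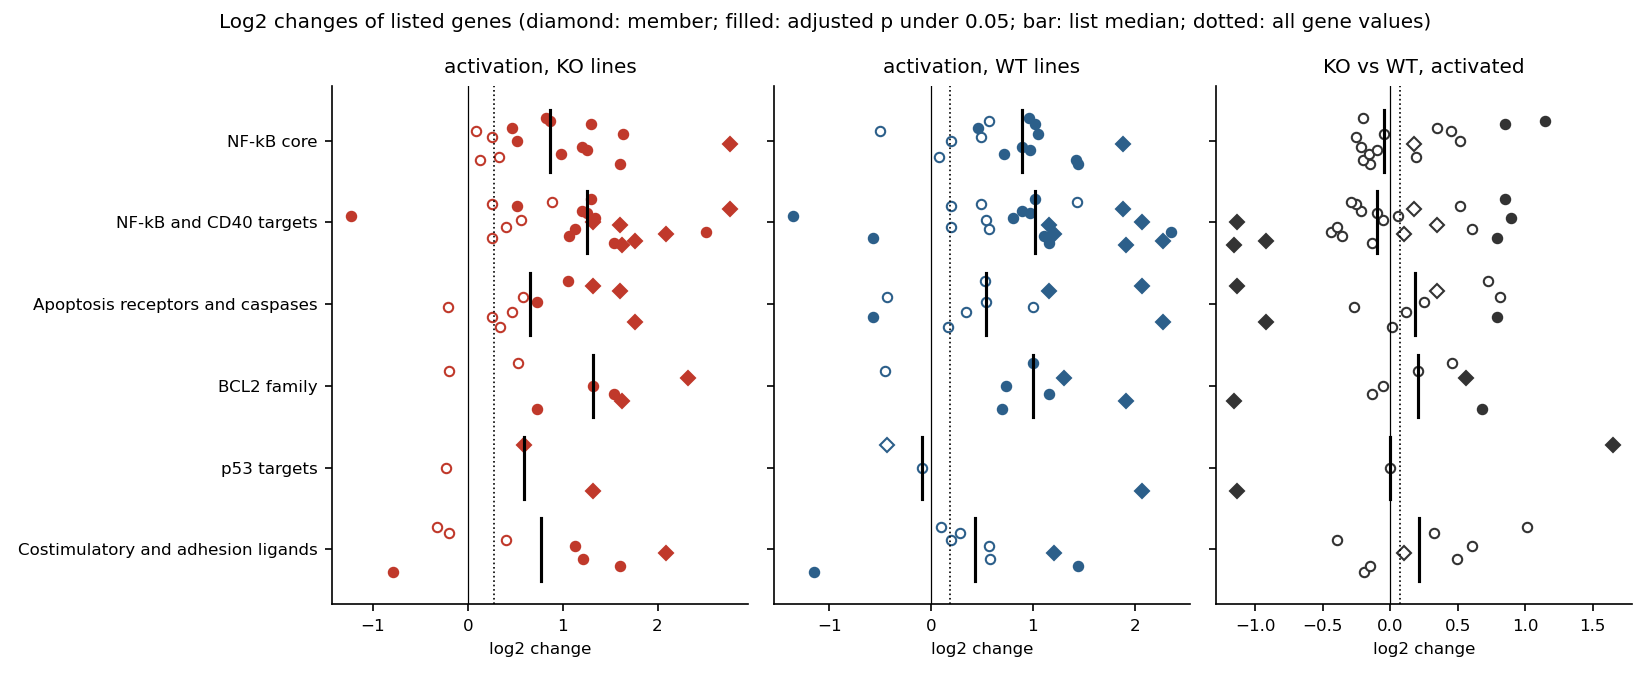
Log2 change of each tested gene of 6 lists in 3 comparisons, diamonds for the 8 genes and circles for others, filled where the edgeR adjusted p is under 0.05, with the list median as a bar and the median of all gene values dotted. Most genes of the NF-kB lists lie to the right of 0 on activation in both genotypes, with Myc to the left, and they are spread to both sides of 0 between KO and WT lines.

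Genes of like pattern were found by the root mean square (RMS) difference between the 8 group means of log2 CPM, each centred on the gene's own mean, among 364 genes of at least 5 CPM in a group. Nearest to Fas was Pakap (RMS 0.133), with a change between activated KO and WT lines of -1.03 and with activation of 1.27 in KO and 2.01 in WT lines, and then Sik1 (0.201), which was also nearest to Birc2 (0.202). Nearest to Bcl2a1b was Il9r (0.186), at -1.48 between activated KO and WT lines. Nearest to Trp53inp1 were Hvcn1 (0.158), at 1.32, and Nfatc1 (0.1998), at 1.06. Ciita was nearest to Nfkbie (0.144), Vasp to Cflar (0.166), Mbp to Cd80 (0.137) and Ptpn12 to Bcl2l15 (0.231). Among the 8 genes, Cflar and Cd80 were closest to each other (0.201), Bcl2a1b and Fas were each closest to Birc2 (0.300 and 0.301), and Trp53inp1 was farthest from any other, at 0.778 from Cflar.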

How the data were processed

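Stranded single-end sequencing of ribosome-depleted RNA is stated by the labels' protocols. Each library's table, as the authors deposited it, holds estimated counts per transcript and per numbered region, which are expected counts from kallisto 0.43.0 on GRCm38.p5 (both, with DESeq2, per the submitters' processing notes) and carry no normalization. How strand was handled in counting is not known here. TPM values, also deposited by the authors, were not used. A region that overlaps a transcript can share reads with it.

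Counts of regions inside exactly 1 RefSeq gene were summed per gene, ignoring 12 annotation entries that span whole loci, which gave 10750 gene values, then rounded. One edgeR 4.0.16 quasi-likelihood model (R 4.3.3, limma 3.58.1) held all 24 libraries as 8 group means, with library sizes and TMM factors (0.924 to 1.11) over all targets and filterByExpr by group (minimum count 10). It was fitted again to 61074 targets, of which 11264 are regions. Tested were the genotypes within a state, the states within a genotype or line, the difference of activation, and pairs of lines. Benjamini-Hochberg adjustment covered all features of a fit, at 0.05. Errors of levels are SDs over libraries, and 95% intervals come from the SE. A limit for 0 counts is 3 counts per library and covers counting error only. Cultures are called biological repeats in the labels, with no word on how separate they were.

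The fits were tested on simulated data. Named genes are the 8 members, Zmynd8, neighbours or copies that may share reads, up to 3 called genes per list, direction and comparison, and the 2 genes of nearest pattern for each member; values of a named gene in other comparisons are given beside them. Members and lists were chosen with earlier results of these data known. Alternatives were relative log expression scaling, TMM from gene values alone, DESeq2 1.42.0, no low-count filter, a replicate block, sums per line, a comparison's libraries alone, each line alone, each library left out, and other sets of regions. Leaving out both unactivated WT libraries that stand apart was chosen after seeing the data.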

Additional observations from a re-analysis of the deposited data

Results flagged for a closer look

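The region inside Birc3, of 869 bases at chr9:7868746-7869614, met the test for a different response in the genotypes. Its activation change was higher in KO than in WT lines by a log2 difference of 0.83 ± 0.20 in the fit over all targets (edgeR adjusted p = 0.0482). In the fit over gene values the same difference had an adjusted p of 0.0575 and was not called. Activated libraries averaged 4.85 CPM in KO and 2.83 CPM in WT lines, and unactivated libraries 4.08 CPM in KO and 4.16 CPM in WT lines (n = 6 each). Its cause was not tested.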

How the results depend on the processing

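Of the 8 genes, the number called was 1 between unactivated KO and WT lines, 5 between activated ones, 8 for activation in KO lines, 7 in WT lines and 0 for the difference. With KO1 alone, or parental WT alone, the unactivated number was 0, and without the libraries that stand apart it was 2. The number for the difference was 1 under DESeq2 and with no low-count filter. Without the libraries that stand apart, gene values called numbered 310 unactivated, 460 activated, 1444 for KO activation and 1265 for WT activation, more than with all libraries. They were fewer with single lines: 157 unactivated, 179 activated, 725 for KO activation and 6 for the difference with KO1 alone (296, 391, 1277 and 25 with all libraries), and 176 unactivated and 683 for KO activation with KO2 alone. With parental WT alone they were 150 unactivated, 203 activated, 519 for WT activation (984 with all libraries) and 0 for the difference, and 567 for WT activation with the WT clone alone. Sums per line gave 253 activated and 0 for the difference, which otherwise was 81 with no filter, 55 under DESeq2 and 45 with the replicate block. Leaving out 1 library gave 14 to 39 gene values for the difference (14 without activated KO2 replicate 1), 0 to 1 members for it, and 1 to 2 members unactivated.

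Whether replicate numbers pair the samples cannot be told from these correlations, whose ranges overlap. Deviations of same-numbered libraries had correlations of -0.292 to 0.263 (median 0.0643, 84 pairs). Those of other-numbered libraries had -0.333 to 0.448 (median -0.033, 168 pairs). The replicate block left the members called at 1, 5, 8, 7 and 0. It gave 1341 gene values for KO activation and 1024 for WT activation, both more than without it.

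Some values changed sign. Between activated KO and WT lines, Cd80 was -0.16 with parental WT alone and -0.15 to 0.31 with 1 library left out, and Nfkbie was -0.049 with KO1 alone. The difference for Bcl2a1b was 0.060 with the WT clone alone. Without its largest region, Cflar was 0.36 unactivated, -0.28 activated and -0.64 for the difference, Bcl2l15 was 0.36 unactivated and -0.28 for the difference, and Fas was 2.41 for the difference, a fitted value that rests on a group at 0. Bcl2a1b, Nfkbie and Cd80 have 1 region and Trp53inp1 failed the filter, so this gave no value for them, nor did fitting only a comparison's libraries for the difference. The cause of these changes was not tested. Counts of 4 to 56 per library limit Cd80 and 4.42 to 29.8 limit Trp53inp1.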

Other observations

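The 3 regions left out of Cd80, because they cross the gene's end or overlap Gm8590, Gm41453 or Ck-ps3, were not part of its value. All 3 were called higher with activation by edgeR in both genotypes, by log2 1.28 to 1.72 in KO lines and 1.00 to 1.03 in WT lines. The region over Gm41453 and Ck-ps3 was the only one of them called between genotypes, at 0.309 CPM in unactivated KO and 0.613 CPM in unactivated WT lines, a change of -1.01 ± 0.29 (edgeR adjusted p = 0.0374).

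The Bcl2a1d region lay lower in unactivated KO lines as well, at 1.42 ± 0.28 CPM against 3.90 ± 0.48 CPM in unactivated WT lines (SD, n = 6 each), a log2 change of -1.45 ± 0.19 (edgeR adjusted p = 4.09e-05). It rose with activation in KO and WT lines by 2.62 ± 0.19 and 2.29 ± 0.19.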
